A study of Glycine max with 6 samples.

Results

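Regions bound by the soybean protein ABI5 on chromosome 13, called in all 4 ChIP-seq libraries of the series, numbered 845 of 11511 such regions in all, of which 11449 lay on the 20 chromosomes. To find them, 2 peaks from different libraries were linked if at least 50% of the shorter one was overlapped, linked peaks were joined into regions, and the regions on chromosome 13 with a peak from every library were kept. They are called shared regions here. The members were chosen by the presence of a called peak in each list and by the chromosome, and chromosome 13 was singled out with its density and its profile along the chromosome already known. Density and position are therefore described, with no test.

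The series is a ChIP-seq study, in which chromatin bound by a protein is precipitated with an antibody and sequenced, of GLYMA.13G153200, which the deposited peak names call ABI5. All samples came from mid-maturation embryos of the soybean (Glycine max) cultivar Williams 82, taken from seeds of 200 to 250 mg and fixed for 10 minutes with 1% formaldehyde, with no other treatment or genotype. Chromatin was precipitated with antibody 1 or antibody 2, each in replicates 1 and 2, and 2 input libraries completed the 6 samples. Each antibody recognises its own peptide, residues 103 to 117 or 275 to 289, and 2 µg of one and 3 µg of the other are listed. Peptide and amount therefore cannot be told apart between the antibodies. How much of the spread between replicates is technical was not tested. The inputs entered only through the background in the peak values, no library without ABI5 served as a control, and whole embryos mix several cell types.

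ABI5 (ABSCISIC ACID INSENSITIVE 5) is a transcription factor of the basic leucine zipper class. In Arabidopsis it acts in the response of seeds to the hormone abscisic acid and binds promoter elements with an ACGT core. In soybean, genes are concentrated towards the chromosome ends, wide stretches rich in repeats surround the centromeres, and chromosome 13 carries the nucleolus organizer. None of these features was located in the coordinates of the peak lists here, so the regions are given by position alone, without genes, DNA sequence or motifs.

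The lists held 12047 to 36189 peaks. On chromosome 13 there were 874 and 2035 peaks for antibody 1 replicates 1 and 2, and 1682 and 2612 for antibody 2 replicates 1 and 2. Shared regions took up 97.0% of the chromosome 13 peaks of antibody 1 replicate 1, the shortest list, and 42.0%, 50.4% and 32.7% of the others in that order. At the summit (where the signal of a peak is highest) the median member rested on 46 fragments (95% exact Poisson interval 33.7 to 61.4), 59 (44.9 to 76.1), 83 (66.1 to 103) and 59 (44.9 to 76.1). The fragment numbers were solved from the values of each peak, and the intervals cover counting error only.

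Chromosome 13 had the highest density of shared regions of the 20 chromosomes, 18.4 per Mb (95% exact Poisson interval 17.2 to 19.7), against 11.8 (11.5 to 11.98) over the other 19 together, a ratio of 1.57. It held 7.38% of the shared regions in 4.83% of the chromosome length. Chromosome 11 followed with 16.8 per Mb and chromosome 17 with 16.2. The interval of chromosome 11, 15.5 to 18.3, overlapped that of chromosome 13, and that of chromosome 17, 15.0 to 17.5, overlapped it as well. The differences between these chromosomes were not tested.

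Chromosome 13 also came first in each library alone. These are the same peak lists that gave the members, so the ranks are not separate support. In antibody 1 replicate 1, where 97.0% of the chromosome 13 peaks lay in members, the density nearly restates the member count. Chromosome 13 had 19.1 peaks per Mb in antibody 1 replicate 1, 44.4 in antibody 1 replicate 2, 36.7 in antibody 2 replicate 1 and 57.0 in antibody 2 replicate 2. The other 19 chromosomes had 12.3, 28.3, 23.8 and 36.998. Chromosome 13 ranked first and chromosome 11 second in every library. Regions called in only 1 to 3 libraries, which the choice of members left out, were also densest on chromosome 13, with 44.4 per Mb and a ratio of 1.53 to the other 19. The high density was thus not limited to the shared regions.

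**Figure D1:**
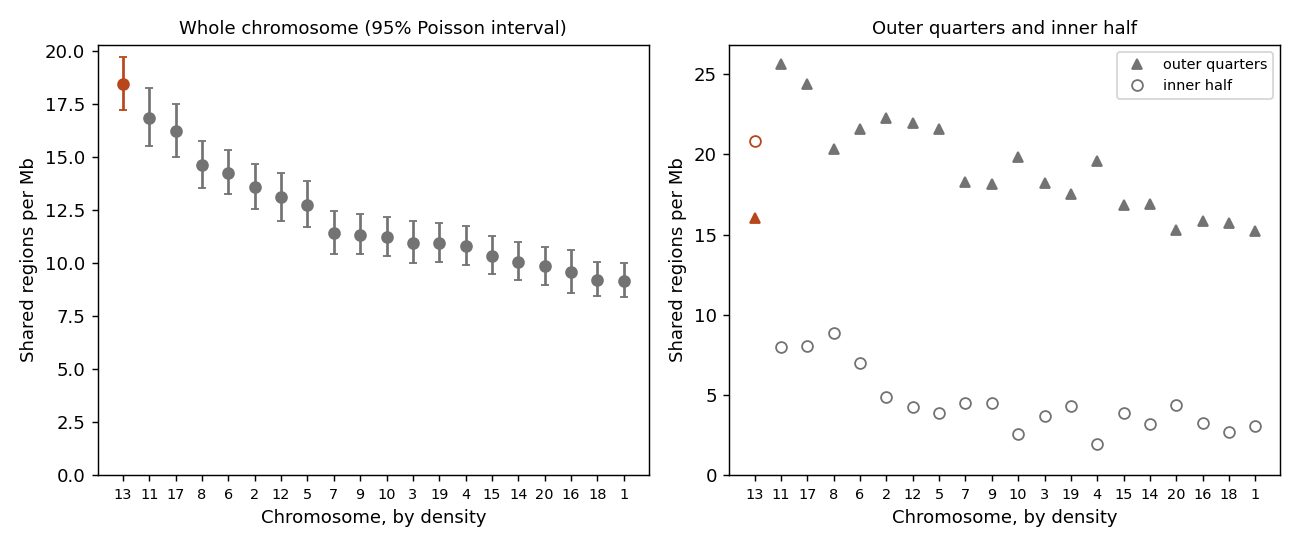
Shared regions per Mb on each of the 20 chromosomes, ordered by density, with chromosome 13 in orange. The left panel shows the whole chromosome with 95% exact Poisson intervals, and the right panel the outer 25% at either end (triangles) and the inner 50% (open circles). Chromosome 13 is the chromosome whose inner part, 20.8 per Mb, is denser than its outer parts, 16.1 per Mb.

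Chromosome 13 was the only one of the 20 chromosomes whose inner 50% was denser in shared regions than its outer parts. Its inner 50% held 477 members, or 20.8 per Mb, where the other 19 chromosomes together had 4.49 per Mb and ranged from 1.99 to 8.88. This is a ratio of 4.64, and 19.1% of the 2502 shared regions in the inner 50% of all chromosomes lay on chromosome 13. The first 25% of its length had 27 members (2.36 per Mb), the lowest density of the 20 chromosomes there. The second had 207 (18.1 per Mb), the third 270 (23.6 per Mb) and the last 341 (29.8 per Mb), each the highest of the 20. Thus 43.6% of the members lay in the outer 25% at either end (95% exact binomial interval 40.2 to 46.97), against 80.9% (80.1 to 81.6) on the other 19, whose range was 69.6% to 90.8%.

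By steps of 10% of length, the other 19 chromosomes together fell from 24.6 shared regions per Mb at the start to 2.12 in the sixth step and rose again to 23.9 at the end. Chromosome 13 instead began with 2.84 per Mb and had no member in the second step. It then climbed to 6.98, 17.2 and 24.0 per Mb in the third to the fifth step. The sixth to the tenth had 23.4, 20.1, 31.2, 29.2 and 29.5 per Mb. From the fifth to the eighth step it was above each of the other 19 chromosomes.

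**Figure D2:**
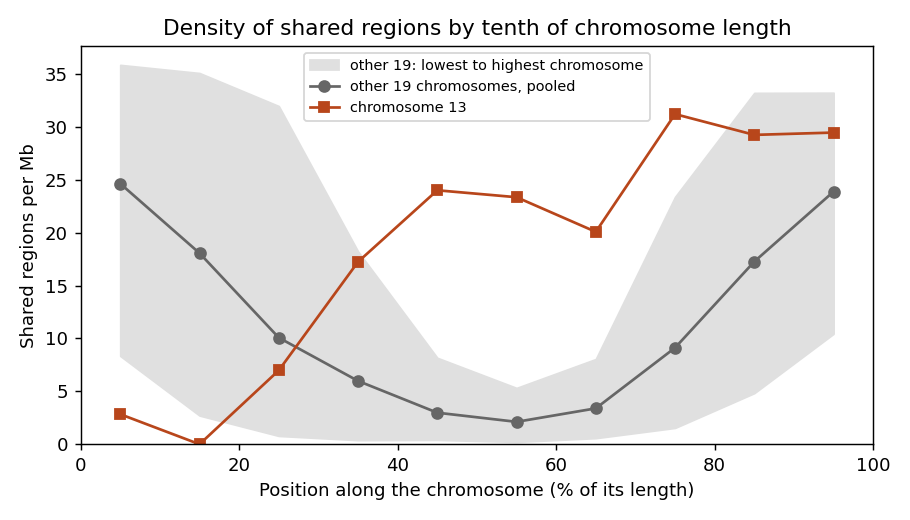
Shared regions per Mb against position in steps of 10% of chromosome length, for chromosome 13 (orange) and the other 19 chromosomes pooled (grey line), with the range over single chromosomes shaded. The pooled line dips to 2.12 per Mb in the middle, while chromosome 13 is at 0 in the second step and between 17.2 and 31.2 from the fourth step on.

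At a finer scale, chromosome 13 divided into 4 stretches, chosen after the counts were seen. The first 3 Mb held 13 members, or 4.33 per Mb (95% exact Poisson interval 2.31 to 7.41). The 7 Mb from 3 to 10 Mb held 1 member, 0.143 per Mb (0.00362 to 0.796). From 10 to 20 Mb there were 127, 12.7 per Mb (10.6 to 15.1). From 20 Mb to the end there were 704, 27.3 per Mb (25.3 to 29.4). In this last stretch each of the 25 full 1 Mb windows held between 14 and 35 members, so that the density stayed high right to the chromosome end.

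The near-empty stretch held few regions of any kind. No shared region lay between 2840804 to 2841188 and 9773385 to 9773906, a distance of 6.93 Mb between summits. This was the longest such gap on any of the 20 chromosomes, followed by 4.83 Mb on chromosome 14, with a median of 3.02 Mb over the other 19. The next longest on chromosome 13 was 0.756 Mb. Inside the gap lay 16 regions of fewer libraries, of which 7 were called in 1 library, 6 in 2 and 3 in 3. In the 7 Mb from 3 to 10 Mb the libraries had 1 and 9 peaks with antibody 1 and 4 and 13 with antibody 2. In the longer stretch from 20 Mb on, 25.8 Mb, they had 729 and 1700, and 1415 and 2172.

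**Figure D3:**
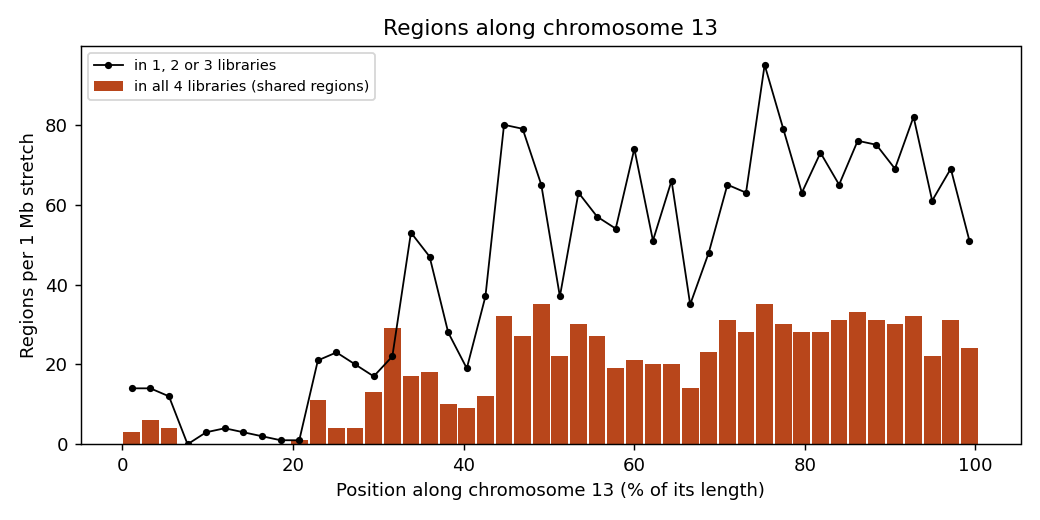
Regions per 1 Mb stretch along chromosome 13, with position in % of its length. Bars are shared regions and the line is regions called in 1 to 3 libraries. The last stretch is shorter than 1 Mb. Both fall to near 0 between the first 3 Mb and 10 Mb, and the bars reach 35 in the densest stretches.

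The share of called regions that recurred in all 4 libraries was close to that elsewhere. On chromosome 13, 845 of 2881 regions had a peak in every library, which is 29.3% (95% exact binomial interval 27.7 to 31.0). On the other 19 chromosomes it was 28.8% (28.3 to 29.2), with a range of 26.3% to 30.5%. Along chromosome 13 the share was 24.5% (13.8 to 38.3) in the first 3 Mb, 6.67% (0.169 to 31.9) of 15 regions from 3 to 10 Mb, 30.7% (26.3 to 35.4) from 10 to 20 Mb and 29.3% (27.5 to 31.2) from there on. These intervals overlap, and the differences were not tested.

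The members were about as strong as shared regions elsewhere. Strength is given as the authors' fold enrichment, the summit's ChIP signal divided by its local background, and it was compared only within a list. In antibody 1 replicate 1 the members ran from 2.43 to 30.7 with a median of 5.52, against 5.45 for shared regions of the other 19 chromosomes. In antibody 1 replicate 2 they ran from 2.70 to 40.6, with a median of 8.55 against 8.71. In antibody 2 replicate 1 the range was 2.77 to 34.4 and the median 7.50 against 7.39. In antibody 2 replicate 2 the range was 2.76 to 46.4 and the median 8.89 against 9.17. The medians were above the rest of the genome in both replicate 1 libraries, where chromosome 13 ranked sixth, and below it in both replicate 2 libraries, with ranks of 16 and 17.

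The mean difference in median fold enrichment was −0.0678 ± 0.185 (SD, n = 4 libraries), within the spread between libraries (exact sign-flip permutation test, two-sided, p = 0.625). With 4 libraries this test cannot reach 0.05, since 2 of the 16 sign patterns always give its smallest p. Median −log10 q differed by −0.26 ± 0.855 (exact permutation p = 0.5, n = 4). Median peak width differed by 0 ± 2.16 bp (exact permutation p = 1, n = 4). The 5 contrasts of this kind, with those of background and upper tail, had adjusted p-values of 1. The libraries come from the same genome and are not independent samples of the chromosome. Whether those of a replicate number shared chromatin is not given in the sources used here.

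The upper tail was also close to that of the genome. In antibody 1 replicate 1, 90 members (10.7%) lay in the top 10% of fold enrichment of the list, where 10.4% of all shared regions did. The number was 187 (22.1%) in antibody 1 replicate 2 against 23.9%, 169 (20%) in antibody 2 replicate 1 against 19.8%, and 237 (28.05%) in antibody 2 replicate 2 against 27.9%. In all 4 libraries at once it was 78 members (9.23%, 95% exact binomial interval 7.36 to 11.4) against 9.07%. The share of members minus that of the other 19 chromosomes was −0.346 ± 1.08 percentage points (exact permutation p = 1, n = 4).

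Along the chromosome the median strength changed little. In the sparse first 3 Mb the median fold enrichment was 5.47 and 8.55 with antibody 1 and 7.51 and 10.4 with antibody 2, for replicates 1 and 2. From 10 to 20 Mb it was 5.38, 8.58, 7.005 and 8.69 in the same order. In the dense stretch from 20 Mb on it was 5.53, 8.53, 7.59 and 8.91. In each library these medians lay well within the spread of single members, whose middle 50% ran from 4.35 to 7.59 in antibody 1 replicate 1 and from 6.89 to 12.6 in antibody 2 replicate 2. Wider members were the stronger ones: those wider than the median of 466 bp had 6.53, 9.98, 9.09 and 10.7, and the others 4.97, 7.81, 6.37 and 7.81.

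The strongest members are ranked by the lowest percentile they reached in any of the 4 lists, so their high values are a description. The first, at 31638782 to 31639632, had fold enrichment 30.7 and 39.7 with antibody 1 replicates 1 and 2, and 34.4 and 46.4 with antibody 2. Its summits lay within 18 bp of one another and rested on 283, 269, 412 and 297 fragments. The second, at 13161642 to 13162496, had 29.1 and 40.6 with antibody 1 and 29.2 and 41.4 with antibody 2. It lay in the sparser 10 to 20 Mb stretch, 285 kb from the member before it and 122 kb from the next. The lowest percentile in any list was 99.86 for the first and 99.8 for the second.

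For the next 3 the lowest percentile in any list was 99.5, 99.4 and 99.2. The member at 44762375 to 44763337 had 27.8 and 28.5 with antibody 1 and 26.1 and 30.9 with antibody 2. That at 23112642 to 23113316 had 28.4 and 26.7, and 29.8 and 30.4, with its 4 summits within 7 bp. That at 10767920 to 10768507 had 30.0 and 28.4, and 30.7 and 26.5. It was 588 bp wide, and its nearest neighbour lay 4.89 kb before it.

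For the other members among the 10 strongest the lowest percentile in any list ran from 98.76 to 99.17. The member at 23204111 to 23204806 had 22.0 and 36.1 with antibody 1, and 23.9 and 35.8 with antibody 2. That at 34803846 to 34804514 had 20.5 and 32.9, and 25.3 and 37.9. The member at 39902050 to 39902762 had 26.1 and 23.2, and 29.2 and 27.6. The remaining 2 of the 10 lay at 41873230 to 41873982 and 38630010 to 38630664. Members ranked 11 to 20 had fold enrichment of 17.4 to 40.3. Of the 20, 18 lay beyond 20 Mb and 2 between 10 and 20 Mb, where 704 and 127 of all 845 members lay. They were 544 to 991 bp wide, and in each the 4 summits lay within 47 bp.

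**Figure D4:**
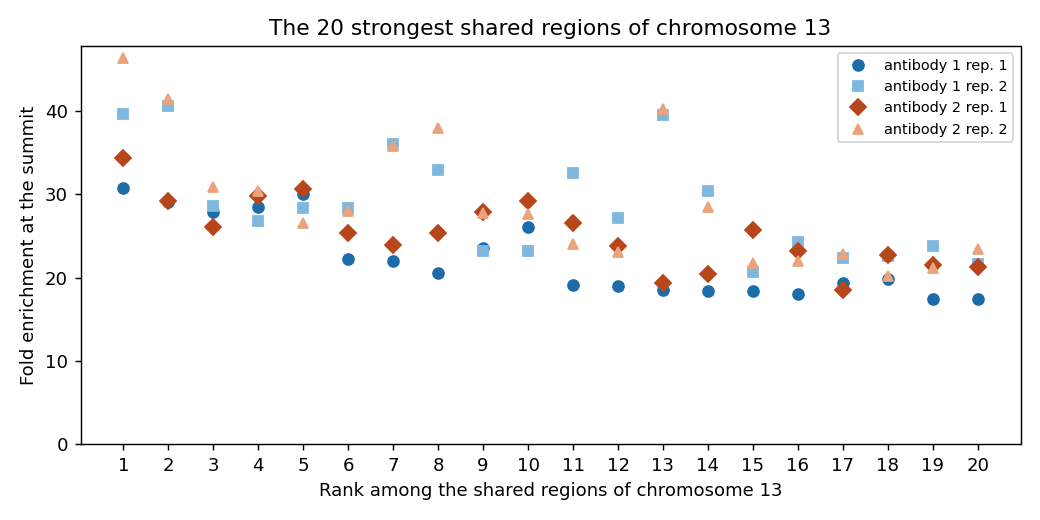
Fold enrichment at the summit in each of the 4 libraries for the 20 strongest members, in order of rank. The highest value is 46.4 in antibody 2 replicate 2 at the first member and the lowest 17.4 in antibody 1 replicate 1 at the last.

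The 14 members of the first 10 Mb had fold enrichment of 3.47 to 20.2 over the 4 libraries. The member at 2558606 to 2559276 had fold enrichment 19.99 and 17.1 with antibody 1 and 19.4 and 14.5 with antibody 2. The member at 1044341 to 1044803 had 11.4 and 20.1, and 13.5 and 20.2. The weakest, at 1066792 to 1067203, had 4.33 and 3.69, and 5.09 and 3.47, and lay 1.60 kb from a stronger neighbour at 1068246 to 1068714 with 6.74 and 10.1, and 8.72 and 12.8. The lone member after the gap, at 9773385 to 9773906, had 4.38 and 5.35, and 6.13 and 6.89, and its summits were spread over 153 bp.

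A few members were ranked far higher with antibody 2 than with antibody 1. Fold enrichment was turned into a percentile among the 11449 shared regions of each library, and a member was counted where both replicates differed by at least 30 points in the same direction. Antibody 2 was higher at 10 members (1.18%, 95% exact binomial interval 0.569 to 2.17), where 0.751% of all shared regions were, a share inside the interval. By at least 50 points it was higher at 5 members (0.592%, 0.192 to 1.38), against 0.253%. Antibody 1 was higher by 30 points at 3 members (0.355%, 0.0733 to 1.03), against 0.201%, and by 50 points at none of the 845, an interval reaching 0.436%, nor at any other shared region. By at least 20 points antibody 2 was higher at 21 members (2.49%), against 2.04%, and antibody 1 at 9 (1.07%), against 1.21%.

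The first of the 5, at 35622304 to 35622948, had fold enrichment 3.89 and 5.76 with antibody 1 and 13.7 and 27.2 with antibody 2. In fragments at the summit these were 31 (95% exact Poisson interval 21.1 to 44.0) and 33 (22.7 to 46.3) against 145 (122 to 171) and 151 (128 to 177). The member was chosen for this difference, and the libraries differ in level, with medians over all members of 46, 59, 83 and 59 fragments. At 33979523 to 33980089 the fold enrichment was 3.74 and 6.64 against 11.7 and 34.7. At 26321764 to 26322422 it was 3.37 and 6.93 against 15.0 and 42.0. These members were chosen for their higher rank with antibody 2.

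The other 2 flanked a strong member. At 39895393 to 39895962 fold enrichment was 4.22 and 8.25 with antibody 1 and 22.7 and 32.3 with antibody 2. At 39911137 to 39911848 it was 4.57 and 7.86 against 11.8 and 23.5. Between them lay the member at 39902050 to 39902762, ranked 10 among the members, which was strong with both antibodies. The first summit was 6.74 kb and the last 9.05 kb from it. In the opposite direction the differences were smaller: at 16488004 to 16488380, the first by rank, fold enrichment was 6.21 and 8.82 with antibody 1 and 5.94 and 5.44 with antibody 2.

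Differences between the replicates were more numerous. By at least 30 points with both antibodies, replicate 2 was higher at 27 members (3.20%, 95% exact binomial interval 2.12 to 4.62), against 3.78% of all shared regions, and replicate 1 at 31 (3.67%, 2.51 to 5.17), against 3.87%. By at least 20 points the numbers were 66 (7.81%, against 8.66%) and 71 (8.40%, against 8.74%), and by at least 50 points 3 (0.355%, against 0.472%) and 4 (0.473%, against 0.445%). Each interval of the members' share at 30 points includes the share of the genome. The member first by rank among those higher in replicate 1 was at 19216533 to 19217194, with fold enrichment 9.78 in replicate 1 and 5.09 in replicate 2 with antibody 1, and 14.4 and 4.71 with antibody 2. In the other direction, at 34834340 to 34834718, it was 3.81 and 13.1, and 3.71 and 13.7. Both antibodies showed the same direction at these sites by the way they were chosen.

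At members that differed between the replicates, the balance of background between replicates differed from that over all members, and so did that of fragments. Fold enrichment is made up of fragments and background, and these members were chosen by its rank. A shift in background, in fragments or in both therefore followed from the choice, and the values are a description. The background expected at the summit was solved in the same way as the fragments. Its medians over all members were 7 and 5.78 for antibody 1 replicates 1 and 2, and 7 and 5.57 for antibody 2. Fragments of replicate 1 were divided by 0.973 (antibody 1) or 0.749 (antibody 2), and its backgrounds were not. Background levels are therefore not directly comparable between the replicates. At the 27 members higher in replicate 2 it was 10.0 and 5.02, and 10.0 and 4.59. At the 31 higher in replicate 1 it was 6.29 and 8.67, and 6.40 and 7.77. The median fragments at the summit were 46 and 70 with antibody 1 and 81 and 67 with antibody 2 at the 27. They were 51 and 54, and 89 and 54, at the 31, beside 46 and 59, and 83 and 59, over all members.

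When members were ranked by fragments in place of fold enrichment, a choice made after the data were examined, 3 of the 27 and 4 of the 31 still differed by 30 points. Of all 845 members, 9 were higher by fragments in replicate 2 by 30 points, 8 in replicate 1, 9 with antibody 2 and 1 with antibody 1. The shares of all shared regions called so by fragments are not given here. These counts therefore do not show whether chromosome 13 differed from the genome. Of the 10 members higher with antibody 2 by fold enrichment, 8 still differed. Their median fragments were 37.5 and 40 with antibody 1 and 137 and 153 with antibody 2, and their background was 7.96 and 5.11, and 8.03 and 5.05. The part of the background and of the fragment number in these differences was not tested beyond these counts.

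**Figure D5:**
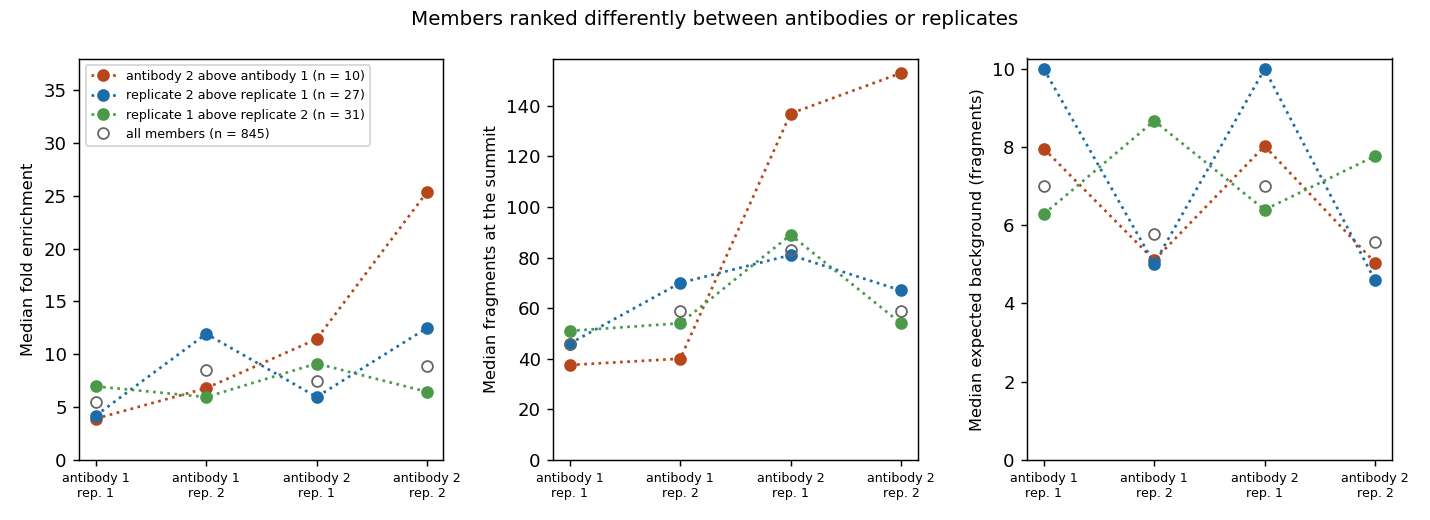
Medians of fold enrichment (left), fragments at the summit (middle) and expected background in fragments (right) in each library, for members ranked at least 30 percentile points higher with antibody 2 (n = 10), in replicate 2 (n = 27) or in replicate 1 (n = 31), and for all 845 members (open circles). Fragments separate the antibodies in the first set (37.5 and 40 against 137 and 153). As plotted, the background differs between the replicates in every set shown. Backgrounds of replicate 1 are on the scale before the division applied to its fragments.

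Across the members as a whole, the ranking by fold enrichment was closest between libraries that share a replicate number. Over the 845 members, Spearman's rho was 0.853 for the replicate 1 libraries of both antibodies and 0.842 for those of replicate 2. It was 0.691 between the replicates of antibody 1 and 0.723 for antibody 2. Antibody 1 replicate 1 with antibody 2 replicate 2, which share neither, had 0.628. Antibody 1 replicate 2 with antibody 2 replicate 1 had 0.701, above the replicates of antibody 1. The members share library, depth and input, and rho is a description across regions. The excess of the same-number pairs was 0.141, inside the range of the other 19 chromosomes, 0.1251 to 0.185, and it was 0.0139 with fragments in place of fold enrichment.

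In width and summit position the members were close to the other shared regions. They were 267 to 1435 bp wide with a median of 466 bp, against 465 bp, and together covered 421 kb. The 4 summits lay within 100 bp in 779 members, which is 92.2% (95% exact binomial interval 90.2 to 93.9), against 91.0% (90.4 to 91.5) elsewhere, and their median spread was 43 bp in both sets. More than 4 peaks were joined in 15 members (1.78%, 0.997 to 2.91) and in 2.94% (2.63 to 3.28) of the others. The widest member, at 38121947 to 38123381, held 6 peaks and had fold enrichment 14.1 and 26.3 with antibody 1 and 18.2 and 24.4 with antibody 2.

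Close pairs were about as frequent as elsewhere, with overlapping intervals. Neighbouring summits lay within 2000 bp in 45 of 844 pairs, which is 5.33% (95% exact binomial interval 3.92 to 7.07), against 5.97% (5.53 to 6.44) on the other 19 chromosomes. Within 10000 bp the shares were 23.8% (20.98 to 26.8) and 22.9% (22.1 to 23.7). At longer distances the shares differed from the other 19 pooled, with 70.4% (67.2 to 73.4) of pairs within 50000 bp against 64.7% (63.7 to 65.6). This was not separated from the higher density of chromosome 13. The median distance was 29.1 kb, against 31.2 kb, and 26.2 kb from 20 Mb on. Over the whole chromosome it was shorter on chromosomes 17 (25.9 kb), 6 (26.2 kb) and 11 (26.7 kb). A short median distance was thus not particular to chromosome 13.

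The closest pair had summits 520 bp apart, with 97 bp between the regions at 21914951 to 21915365 and 21915463 to 21915816. Fold enrichment on the left was 6.07 and 9.79 with antibody 1 and 7.12 and 8.11 with antibody 2, and on the right 4.09 and 7.96, and 6.27 and 9.48. The left site was higher in 3 of the 4 libraries. Among the 5 closest pairs, the right site was higher in every library at 33357782 to 33358089 and 33358326 to 33358719, 617 bp apart. In 2 of the pairs the left site was higher in every library. In the pair at 28509884 to 28510357 and 28510580 to 28510943, 638 bp apart, it had 9.64 and 16.3, and 16.7 and 19.8, against 5.90 and 11.6, and 7.93 and 8.39. The other lay at 44682796 to 44683341 and 44683563 to 44684236, 799 bp apart. Its left site had 12.5 and 16.2, and 16.8 and 12.8, and its right site 4.72 and 8.86, and 8.50 and 8.20.

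The rule's thresholds excluded little on this chromosome. The lowest overlap that linked 2 peaks within a member was 61.0% of the shorter peak, the next 61.1%, and 94.1% of the linked pairs overlapped by at least 90%. Outside, 17 overlapping pairs were left unlinked, the closest with 48.7%. The list length mattered more: of the 590 regions of 3 libraries on chromosome 13, 572 lacked only antibody 1 replicate 1. Those had median fold enrichment of 5.31 in antibody 1 replicate 2 and 4.42 and 5.85 in antibody 2 replicates 1 and 2. Without that library 1417 regions of chromosome 13 were shared by the other 3, a density of 30.9 per Mb.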

How the data were processed

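The members, stretches and contrasts were chosen with earlier results of these data known. The submitters' processing notes name Bowtie 0.12.7 and MACS3, a read aligner and a peak caller. Per the deposited names, peaks were called for each library separately at a q-value threshold of 0.01. The genome build is not given in the sources used here, and the gene table used here did not line up with the coordinates. The deposited lists give fold enrichment as a ratio, −log10 p, −log10 q, and a score, 10 times the −log10 q, which was not used. Fold enrichment and −log10 q are the authors' values and were used within a list. Positions count from 1.

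Where a region held several peaks of a library, that of highest fold enrichment was used. The summit of a region is the mean of its 4. Chromosome length is taken to the last peak's end over all libraries. Fragments and background at a summit were solved from fold enrichment, taken as (pileup + 1)/(background + 1), and −log10 p as a Poisson tail. Pileups were whole (tolerance 0.02) in replicate 2, and in replicate 1 once divided by a factor of 0.973 (antibody 1) or 0.749 (antibody 2), whose origin the sources used here do not give. Backgrounds are on the scale before this division. The stretches, point thresholds, runs and ranks by fragments were chosen after the data were seen. Library totals were not used here.

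Within-list differences between chromosome 13 and the other 19 were tested by exact sign flips over the 4 libraries (Benjamini-Hochberg over 5 contrasts). Poisson and binomial intervals are exact, at 95%, and cover counting error only. Named regions are the 20 strongest, those of the first 10 Mb, the 5 most different between antibodies and between replicates in each direction, the closest pairs, and the widest and narrowest, described singly or by range. Calculations used Python 3.11.15, numpy 2.4.6, pandas 2.3.3 and scipy 1.17.1, tested on simulated data.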

Additional observations from a re-analysis of the deposited data

How the results depend on the processing

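Chromosome 13 ranked first of 20 in density in each of the 10 versions of the lists. Of 137 alternative values, 105 kept their direction, stayed within their interval or, for counts and densities, stayed within a factor of 1.5. These intervals were of different kinds. For the rank-agreement excess it was the value plus or minus the SD over the other 19 chromosomes, 0.123 to 0.159. For the summit spread it was an interval of the median, 42 to 46 bp. For the density ratio it held the counting error of chromosome 13 only, and for percentages it was binomial. The differences in width and those of the replicate block could not turn, and are among the 105. Lists of equal length gave 566 shared regions, 12.4 per Mb, and −log10 q of at least 10 gave 646, 14.1 per Mb. Leaving out 1 library gave 849 to 1417 shared regions, 18.5 to 30.9 per Mb, 5.41% to 9.32% of neighbours within 2000 bp, 30.4% to 49.2% of regions in every library, and a rank-agreement excess of 0.107 to 0.161, with the high end of the first 4 and the low end of the last reached without antibody 1 replicate 1. The summit spread fell to 35 to 36 bp, since 3 summits were compared. The mean differences from the other 19 chromosomes, never past a threshold, ran from −0.106 to 0.00411 in fold enrichment, −0.696 to 0.182 in −log10 q, −0.0367 to 0.0467 in background and −0.574 to 0.235 percentage points in the top 10%. That of width, 0 bp, has no direction to turn and ran from −2 to 0.625 bp over all alternatives.

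Lists of equal length turned 3 of these, to 0.0198 in fold enrichment, −0.0803 in background and 0.421 points in the top 10%. They gave 44.8% of regions in every library, a spread of 38 bp and an excess of 0.181. At −log10 q of at least 10 the background difference was −0.0275, the share 31.98%, the spread 39 bp and the excess 0.186. The causes were not tested. By construction, the density ratio without the first 10 Mb of every chromosome was 2.52, the outer 20% at either end held 33.4%, and 13.98% and 23.8% of neighbours lay within 5000 and 10000 bp. Fragments in place of fold enrichment, added later, gave an excess of 0.0139. A replicate block, averaging the antibodies of each replicate number, leaves these means as they are (−0.0678, −0.26, 0, 0.0075 and −0.346) with a smallest p of 0.5. Motifs were not searched, as no genome sequence was used here. Fragment numbers of 19 to 412 at a summit limit what single members can show.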

Other observations

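Members lay in short runs as well as in pairs. Chained at distances of at most 10 kb, a choice made after the data were examined, 349 members (41.3%) lay in 148 runs of at least 2, and 12 runs held 4 or more. On the other 19 chromosomes 4235 of 10604 shared regions (39.9%) lay in such runs. Runs of 4 or more held 6.15% of the members and 4.71% of the other shared regions, a difference that was not tested. The longest had 5 members each, at 22011532 to 22028870, 36381332 to 36401133, 40133525 to 40149062 and 40820962 to 40847601. Members with a neighbour within 10 kb had median fold enrichment of 5.65 and 8.82 with antibody 1 and 7.68 and 9.48 with antibody 2. The other 496 had 5.47 and 8.37, and 7.27 and 8.58.

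The densest full 1 Mb windows of chromosome 13 held 35 members each, from 22 to 23 Mb and from 34 to 35 Mb. The first also had 16 regions of 3 libraries, 17 of 2 and 32 of 1, and the second 37, 19 and 39. Among the 100 strongest shared regions of the 20 chromosomes 10 lay on chromosome 13, and among the 1000 strongest 75 did, which is 7.5% where the chromosome holds 7.38% of all shared regions. The narrowest member, 267 bp at 36440045 to 36440311, had fold enrichment of 4.11 and 3.77 with antibody 1 and 5.10 and 4.66 with antibody 2. The member ranked last, at 42355595 to 42356322, had 2.43 and 8.34, and 4.33 and 6.01.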
